A study of Homo sapiens with 6 samples.

Results

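The 9 genes described here encode the receptor chains for interferons and the kinases and transcription factors that act next to them: IFNAR1, IFNAR2, IFNGR1, IFNGR2, IL10RB, JAK2, TYK2, STAT2 and IRF9. They were chosen by gene symbol, and 9 of 9 were found among the 24494 genes that the deposited table names with a feature of their own. Where a gene had several features, the feature of highest mean over the 6 arrays was used. Expression was measured on arrays in bulk subcutaneous tumours that 1205Lu, a human line from a metastatic melanoma, formed within about 6 weeks in NSG mice, which lack mature lymphocytes and natural killer cells. The control group (3 tumours) carried a non-target short hairpin RNA and the knockdown group (3 tumours) one against SHP2, the phosphatase encoded by PTPN11. All 6 tumours share the cell line and the host strain. The labels do not say how many cell clones or mice stand behind the samples, so the p-values refer to the spread among the samples, which may be partly technical. No interferon treatment is named in the labels.

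Interferons act on nearby cells through paired receptor chains. Type I interferons bind IFNAR1 and IFNAR2, which carry the kinases TYK2 and JAK1, and interferon gamma binds IFNGR1 and IFNGR2, which carry JAK1 and JAK2. The kinases phosphorylate STAT proteins, and STAT2 and IRF9 are subunits of the complex ISGF3, which binds the interferon-stimulated response element (ISRE) of antiviral genes, while STAT dimers bind the gamma-activated sequence (GAS). SHP2 is known both as a carrier of growth factor signals to RAS and ERK and as a phosphatase that acts on JAK and STAT proteins. Melanoma cells usually express both receptor types, which bear on their display of antigens to T cells.

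Values are log2 GCRMA values, as the authors deposited them, and differences are knockdown minus control on that scale. GCRMA is a method that corrects for background from the base composition of probes, brings the arrays to a common distribution and combines probes into 1 value per feature. Tests are those of limma, fitted on the 12541 genes that exceeded a log2 value of 4 in at least 3 of the 6 arrays, with Benjamini-Hochberg adjustment over those genes. All 9 members passed that filter. It is permissive, so each value was also set against the level that 95% of the 3575 negative control features on that array did not exceed, called the negative control percentile here. It ran from 5.12 to 5.90 in control and from 5.09 to 5.43 in knockdown arrays. Control 1 had the highest of these percentiles, and it held the lowest value of 45.9% of all genes compared.

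PTPN11 was lower in every knockdown tumour, with a difference of -2.05 (SE 0.21), or 24.2% of the control level in linear terms (limma adjusted p = 0.034). It was the only gene past the threshold of 0.05, 0.00797% of the genes compared, and it lost the call without any 1 of control 2, control 3 or the 3 knockdown arrays (adjusted p from 0.096 to 0.27).

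None of the 9 members rose or fell past the threshold. The limma adjusted p was 1.00 for each of them, and the unadjusted p was under 0.05 for 0 of 9, against 2.54% of all genes compared. Differences were positive for 4 members and negative for 5, with a median of -0.06, while 62% of all genes compared had a positive difference and the median over all of them was 0.05. The groups did not overlap for 1 member, STAT2, against 6.67% of all genes compared. With arrays centred on their median they did not overlap for 2 members, IFNAR1 and TYK2, against 9.31%. Set apart by size was IFNAR1 (0.43), and the other 8 differences lay between -0.12 and 0.16. These share the spread of 3 arrays a group: standard errors of the 9 members ran from 0.14 to 0.23.

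**Figure D1:**
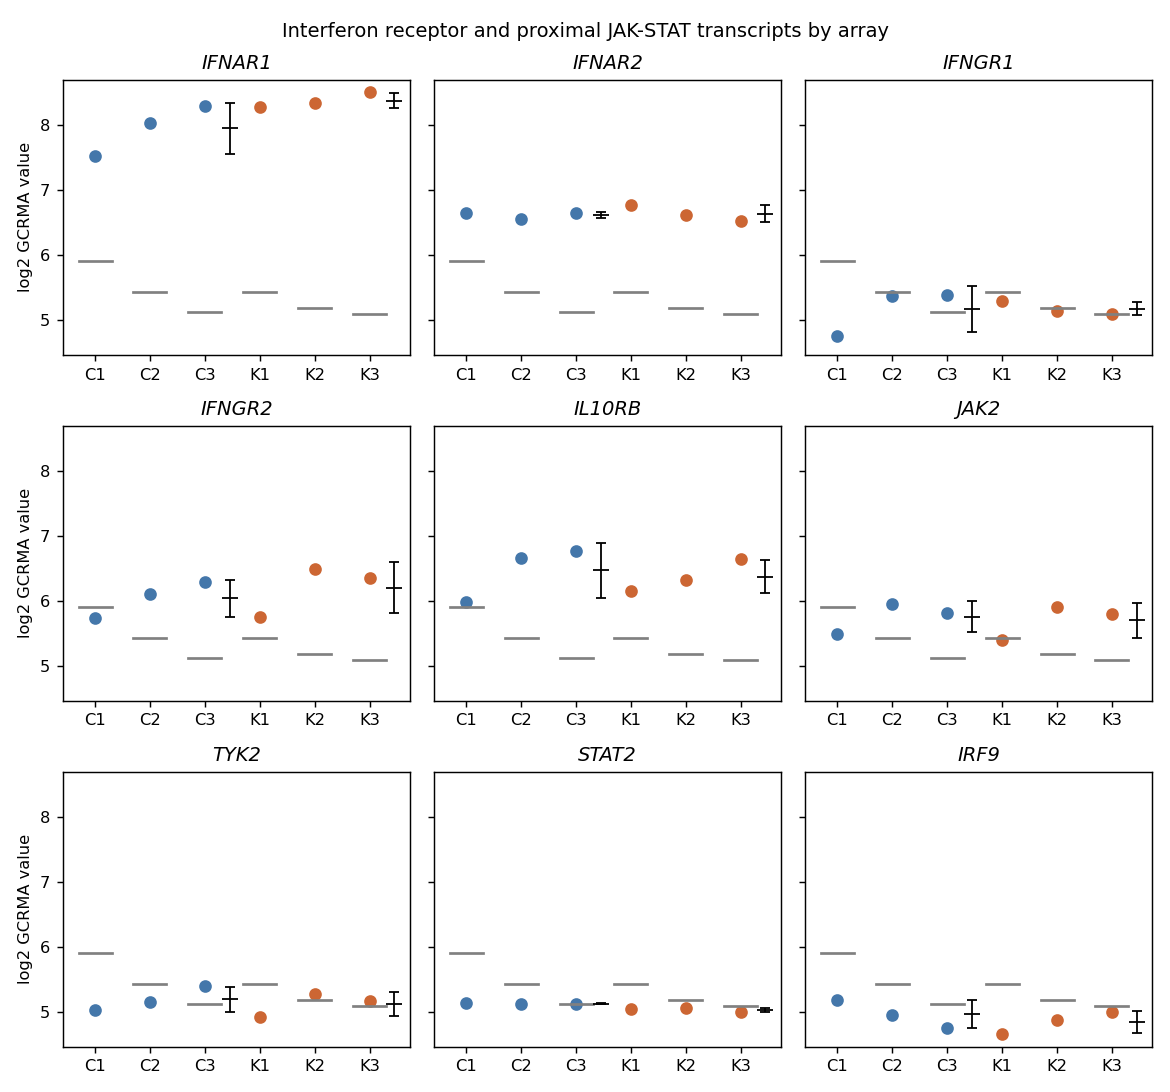
Log2 GCRMA values (vertical axis) of the 9 members on control arrays C1 to C3 (blue) and knockdown arrays K1 to K3 (orange), with the group mean ± SD (n = 3) in black and the 95th percentile of negative control features of each array as a grey line. IFNAR1, IFNAR2 and IL10RB lie above the grey line on all 6 arrays, while STAT2 and IRF9 lie at or below it on all 6.

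The type I receptor chains differed little or within the spread. IFNAR1 encodes a signalling chain that binds TYK2 and is represented by feature 16922260. Its values were 7.52, 8.04 and 8.30 in the control tumours, in the order of their numbers, and 8.28, 8.35 and 8.51 in the knockdown tumours. Values below keep that order. The 3 knockdown tumours lay close together at the top, and control 3 reached into their range, so the groups overlapped by a narrow margin. The means were 7.95 ± 0.39 (SD, n = 3) and 8.38 ± 0.12 (SD, n = 3), a difference of 0.43 (SE 0.21, 95% interval -0.04 to 0.90). In linear terms this is 135% of control, with an interval from 97.6 to 186%. The unadjusted limma p was 0.067 and the adjusted p was 1.00, and an exact two-sided permutation test gave p = 0.2, where the smallest p that 3 against 3 samples allow is 0.1. The difference was larger than that of 97.9% of the genes compared. It rests in part on control 1, the lowest array: without it the difference was 0.21, and with each array's contrast between positive and negative control features as a covariate, an alternative chosen after the data were seen, it was 0.19. With arrays centred on their median, the IFNAR1 values were 7.68, 8.06 and 8.18 in control and 8.36, 8.24 and 8.47 in knockdown tumours. The groups then did not overlap, with knockdown values higher, as for 4.94% of all genes compared on that scale (difference 0.38, SE 0.16). The unadjusted limma p was then 0.044, on a scale where 3.43% of all genes had one under 0.05, and the limma adjusted p was 0.99.

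IFNAR2 encodes the chain with the higher affinity for type I interferons, which carries JAK1 and docks STAT2. Its feature, 16922222, is annotated on chromosome 21 at 34602214 to 34637969 on the plus strand of GRCh37. The values were 6.64, 6.56 and 6.64 in control and 6.77, 6.62 and 6.52 in knockdown tumours. They were nearly level over the 6 arrays, and the knockdown tumours held both the highest and the lowest value. The difference was 0.02 (SE 0.15), with an interval of 80.3 to 128% of the control level. IFNAR1 and IFNAR2 thus had differences of unlike size in the same tumours: their within-array log2 ratio was 0.41 higher in knockdown than in control tumours, with groups that overlapped and control 1 lowest. That ratio was computed after the values were seen and was not tested.

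For the interferon gamma receptor, neither chain differed beyond the spread. IFNGR1, the ligand-binding chain on chromosome 6 (feature 17024144), was 4.75, 5.37 and 5.38 in control and 5.28, 5.14 and 5.09 in knockdown tumours. Control 1 was the lowest and the other control tumours were the highest, so the knockdown values fell inside the control range. The difference was 0.01 (SE 0.20, interval 73.9 to 137% of control), and it was -0.20 without control 1. IFNGR1 exceeded the negative control percentile on 2 of 6 arrays. IFNGR2, the chain that brings JAK2 to the receptor (feature 16922275), was 5.73, 6.10 and 6.29 in control and 5.75, 6.50 and 6.36 in knockdown tumours. In each group the sample numbered 1 was the lowest. The difference was 0.16 (SE 0.23, interval 78.3 to 159% of control). It was 0.0033 without control 1, 0.01 without knockdown 2 and 0.38 without knockdown 1. IFNGR2 exceeded the percentile on 5 of 6 arrays.

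IL10RB encodes a chain shared by the receptors for interleukin 10, interleukin 22 and type III interferons (feature 16922243). Its values were 5.98, 6.66 and 6.77 in control and 6.15, 6.32 and 6.65 in knockdown tumours, above the negative control percentile on all 6 arrays. The control tumours spanned the whole range of the knockdown tumours. The difference was -0.10 (SE 0.23, interval 65.2 to 134% of control), and it was -0.34 without control 1 and -0.39 with the control contrast of the arrays as a covariate. There IL10RB had the lowest unadjusted limma p of the members (0.025) and a limma adjusted p of 0.91. The chains that pair with it in these receptors, IL10RA, IL22RA1 and the type III interferon chain IL28RA (now IFNLR1), and the related chains IL20RA and IL20RB did not pass the filter on low values, so no difference is given for them.

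**Figure D2:**
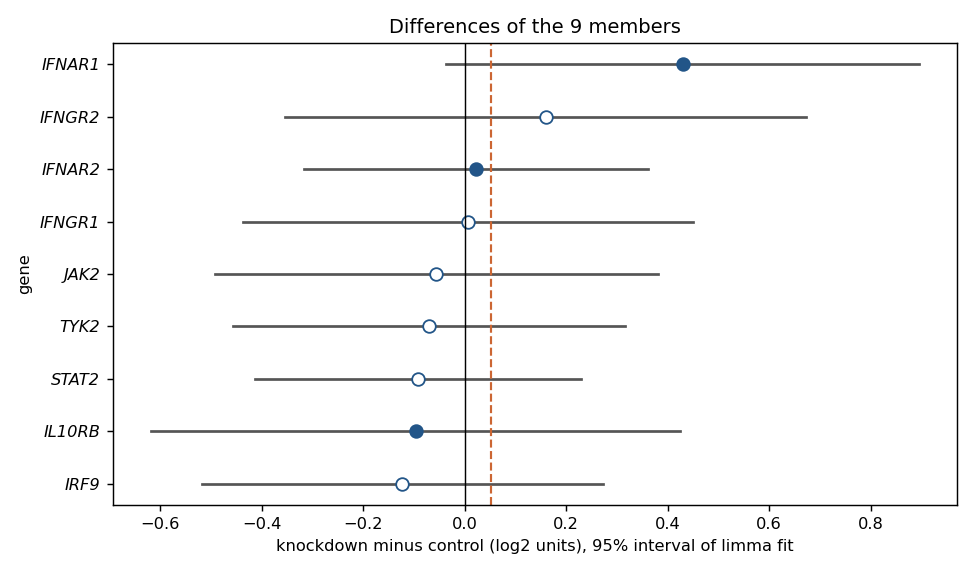
Difference between knockdown and control tumours (horizontal axis, log2 units) for each member, with the 95% interval of the limma fit. Filled points are members above the negative control percentile on all 6 arrays, and the dashed line is the median of all genes compared (0.05). Every interval includes 0, and IFNAR1 lies farthest from it at 0.43.

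Of the 9 members, 4 share a position. IFNAR2, IL10RB, IFNAR1 and IFNGR2 stand next to each other, in this order, among the protein-coding genes of chromosome 21 in the RefSeq annotation of GRCh38.p14, which also lists a read-through gene, IFNAR2-IL10RB, that spans the first pair. The genes on either side that were listed for comparison were 19, of which 12 were compared. Of those 12, 0 rose and 0 fell past the threshold, 7 differences were positive and 5 negative, and the median was 0.08. SYNJ1, a phosphoinositide phosphatase, differed by 0.45 (SE 0.19), SLC5A3, a myo-inositol transporter, by 0.36 (SE 0.16) and C21orf59 by 0.35 (SE 0.17). Without control 1 the differences were 0.27, 0.36 and 0.24 in that order. SYNJ1 exceeded the negative control percentile on 3 of 6 arrays. For these 3 the groups did not overlap, and knockdown values were higher, as for 3.86% of all genes compared. DONSON, a DNA replication factor, differed by 0.21 (SE 0.20). The differences nearest to the cluster ranged from 0.11 for OLIG1 on one side to 0.15 for GART, a purine synthesis enzyme, on the other. OLIG1 exceeded the negative control percentile on 0 arrays. The adjacent receptor genes ranged from -0.10 to 0.43. Only IL10RB was negative among them, and its sign is not settled: it was 0.0545 without control 3 and 0.0163 without knockdown 1.

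The receptor-associated kinases had differences close to 0. JAK2, on chromosome 9 (feature 17083319), phosphorylates the interferon gamma receptor and the receptors of many cytokines and hormones. It was 5.49, 5.96 and 5.82 in control and 5.40, 5.91 and 5.79 in knockdown tumours. The samples with the same number had like values in both groups, with those numbered 1 lowest. The difference was -0.06 (SE 0.20, interval 71.1 to 130% of control), and JAK2 exceeded the negative control percentile on 4 of 6 arrays. TYK2, the kinase bound to IFNAR1 and IL10RB, is read by feature 16868689, annotated on chromosome 19 at 10461209 to 10491352 on the minus strand of GRCh37. It was 5.02, 5.15 and 5.40 in control and 4.92, 5.27 and 5.17 in knockdown tumours. The groups overlapped, the difference was -0.07 (SE 0.17, interval 72.9 to 124% of control), and 3 of 6 arrays exceeded the percentile. With arrays centred on their median the 3 TYK2 values in knockdown tumours lay below the 3 control values, as for 4.38% of all genes compared on that scale, with a difference of -0.12 (SE 0.12, limma adjusted p = 0.99).

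STAT2 and IRF9 are the ISGF3 subunits among the members. STAT2 supplies the activation domain of the complex and IRF9 the contact with DNA. The promoters of this pair of genes are shown because genes of this pathway can themselves be interferon targets. Each run is the 250 bases before the annotated start on the gene's strand, from RefSeq, build GRCh38.p14, with matches to a motif in capitals. STAT2 lies on the minus strand (chr12:56360108-56360357) and IRF9 on the plus strand (chr14:24161015-24161264).
STAT2: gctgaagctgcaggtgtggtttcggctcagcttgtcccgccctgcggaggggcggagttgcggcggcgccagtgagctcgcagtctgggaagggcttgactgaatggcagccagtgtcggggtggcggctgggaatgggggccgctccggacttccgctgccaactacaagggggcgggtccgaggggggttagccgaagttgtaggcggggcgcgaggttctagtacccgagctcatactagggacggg
IRF9: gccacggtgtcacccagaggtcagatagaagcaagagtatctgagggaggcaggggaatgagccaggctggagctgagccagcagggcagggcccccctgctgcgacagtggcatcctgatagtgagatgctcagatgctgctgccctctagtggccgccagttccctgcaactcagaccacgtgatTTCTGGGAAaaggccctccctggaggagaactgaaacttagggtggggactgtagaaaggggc

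Both strands were searched for the ISRE letters GAAANNGAAA and the GAS letters TTCNNNGAA. These patterns cannot start at the same base but may otherwise overlap. The IRF9 window holds 1 GAS match, the capitals above, 63 bases before the start, and 0 ISRE matches. The STAT2 window holds 0 matches to either. Of the 35116 promoter windows in the table, 6.57% hold the GAS letters and 3.02% the ISRE letters. Windows of the same kind were found for IFNAR1, IFNGR1, IFNGR2, IL10RB, JAK2 and TYK2, none with a match. IFNAR2 had no entry. A match of letters is a description of the sequence only.

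STAT2, on chromosome 12 (feature 16766093), was 5.14, 5.11 and 5.12 in control and 5.04, 5.06 and 4.997 in knockdown tumours. The 3 knockdown values lay below the 3 control values by a small margin, as for 2.81% of all genes compared. The means were 5.12 ± 0.01 (SD, n = 3) and 5.03 ± 0.03 (SD, n = 3), a difference of -0.09 (SE 0.14, interval 75.1 to 117% of control). The unadjusted limma p was 0.54, and the exact two-sided permutation p was 0.1, the smallest possible. The SD of the control tumours was the smallest of the 9 members, and the ordinary test of each gene by itself, with no moderation of variances, gave an unadjusted p of 0.0085 and an adjusted p of 1.00. STAT2 exceeded the negative control percentile on 0 of 6 arrays. With arrays centred on their median the groups overlapped. IRF9, on chromosome 14 (feature 16782687), was 5.19, 4.95 and 4.75 in control and 4.65, 4.87 and 4.996 in knockdown tumours, on 0 of 6 arrays above the percentile. Control 1 was the highest and knockdown 1 the lowest, with the other values between. The difference was -0.12 (SE 0.18, interval 69.9 to 121% of control). It was -0.0099 without control 1, -0.03 without knockdown 1 and -0.23 without control 3. A further IRF9 feature, 16782684, annotated on chromosome 14 at 24620427 to 24636611 on the plus strand of GRCh37, had values from 3.13 to 3.55 and a difference of -0.12. IRF9 was the only member with more than 1 feature.

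Over the 9 members, control 1 held the lowest value of 4 (IFNAR1, IFNGR1, IFNGR2 and IL10RB), knockdown 1 of 3 (JAK2, TYK2 and IRF9) and knockdown 3 of 2 (IFNAR2 and STAT2). Centred on each gene's own mean over the arrays, the median member stood at -0.24 in control 1 and -0.23 in knockdown 1, and between -0.01 and 0.13 on the other 4 arrays. For all genes compared the corresponding medians were -0.16 in control 1 and -0.06 in knockdown 1. The contrast of positive with negative control features was 3.64 in control 1, 4.11 in knockdown 1 and from 4.19 to 4.47 on the others. The arrays with the lowest contrast thus had the lowest median member. Single members went the other way: STAT2 and IRF9 were highest in control 1, and IFNAR2 was highest in knockdown 1. The part of the contrast in the differences was not tested beyond the fit with that contrast as a covariate.

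**Figure D3:**
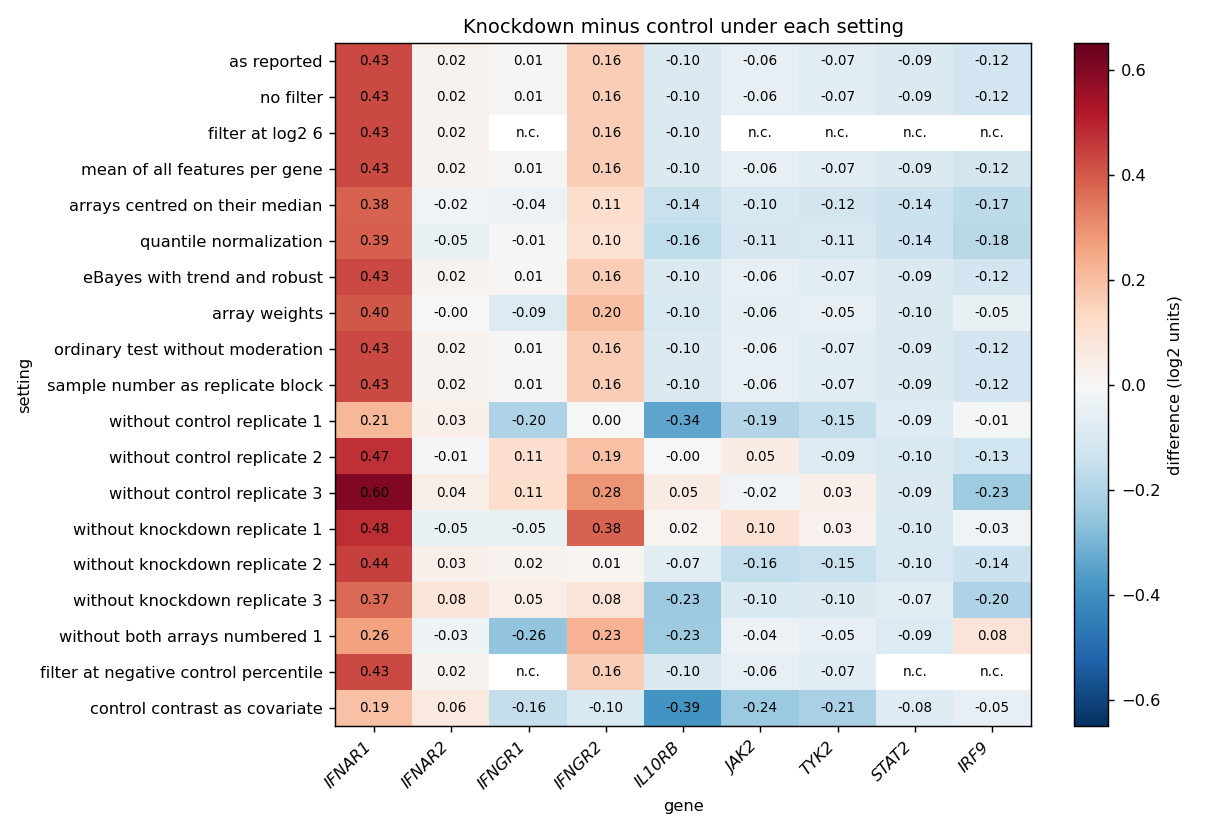
Difference between knockdown and control tumours (log2 units, colour and printed value) for each member (columns) as reported and under each alternative (rows); n.c. marks a member that did not pass that filter. IFNAR1 stays positive in every row (0.19 to 0.60) and STAT2 negative in every row where it was compared, while the other 7 members change sign in at least 1 row.

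Genes for other proximal proteins of the pathway did not pass the test. Of 8 listed genes for other chains, kinases and STAT proteins, 2 were compared, and 0 rose and 0 fell. Both differences were positive as reported and negative with arrays centred on their median. JAK1, which serves both interferon receptor types, was 7.81, 8.06 and 8.20 in control and 7.94, 8.15 and 8.04 in knockdown tumours (difference 0.02, SE 0.17). STAT3, which transmits interleukin 6 and interleukin 10 signals, differed by 0.03 (SE 0.18). JAK3 did not pass the filter.

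Interferon genes themselves were mostly at low values. Of 21 listed ligand genes 2 were compared, and IFNB1, IFNG and 12 of 13 alpha interferon genes stayed below the filter. IFNA14 was 6.27 ± 0.37 in control and 6.50 ± 0.31 in knockdown tumours (SD, n = 3). It exceeded the negative control percentile on 6 arrays. Alpha interferon genes are alike in sequence, and whether this feature reads 1 gene was not tested. IL28B (now IFNL3), a type III interferon, differed by 0.15 (SE 0.16) and exceeded the negative control percentile on 0 arrays. Neither difference passed the test.

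Among negative regulators of interferon signalling, which act on the receptors, kinases or STAT proteins, 15 of 17 were compared. PTPN11, which is on this list, fell and 0 rose. Of the 15 differences 11 were positive, with a median of 0.14, while 62% of all genes compared had a positive difference. SMURF1, a ubiquitin ligase, was 6.29, 6.68 and 6.72 in control and 6.73, 7.01 and 6.93 in knockdown tumours. The groups did not overlap, with knockdown values higher, as for 3.86% of all genes compared (difference 0.33, SE 0.18, limma adjusted p = 1.00). CBL, a ubiquitin ligase for activated kinases and receptors, differed by 0.35 (SE 0.20) and SOCS3, a feedback inhibitor of JAK kinases, by 0.29 (SE 0.19), both with overlapping groups. Without control 1 SMURF1 differed by 0.19, CBL by 0.22 and SOCS3 by 0.24.

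Interferon regulatory factors other than IRF9 are transcription factors that induce interferons and their targets. They gave 5 positive differences among 6 compared, against 62% of all genes compared, with a median of 0.15 and 0 past the threshold. IRF1, a primary target of interferon gamma, differed by 0.38 (SE 0.23) and IRF7, an ISGF3 target, by 0.24 (SE 0.17). Without control 1 IRF1 differed by 0.23 and IRF7 by 0.10. Both exceeded the negative control percentile on 0 arrays.

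Lists of targets downstream of the members had higher median differences than the members, though 0 of their genes passed either. Single genes did not follow that order: IFNAR1 (0.43) exceeded most ISGF3 targets, and IFITM2, an antiviral membrane protein, differed by -0.15. IFITM2 held the lowest difference of the ISGF3 list, and the highest was 0.81. Of 33 listed ISGF3 targets 18 were compared, 17 differences were positive, against 62% of all genes compared, and the median was 0.28. With arrays centred on their median, 16 were positive and the median was 0.24. The groups did not overlap for 3 of the 18, SAMD9L, IFI35 and IFI27, each higher in knockdown tumours, against 3.86% of all genes compared. SAMD9L exceeded the negative control percentile on 4 arrays, IFI35 on 2 and IFI27 on 0, and 8 of the 18 did so on at least 3 arrays. OAS2, which senses double-stranded RNA, differed by 0.42 (SE 0.22) with groups that overlapped, and exceeded the percentile on 0 arrays. IFIT1, IFIT2, IFIT3, RSAD2 and MX2, among the strongest targets of type I interferon, did not pass the filter. Of 22 listed GAS-driven targets of interferon gamma 9 were compared. All 9 differences were positive, against 62% of all genes compared, and the median was 0.30 (8 positive, median 0.26, after centring). List medians were not computed with arrays left out. ICAM1, a leukocyte adhesion receptor, differed by 1.17 (SE 0.46) with groups that overlapped, and by 0.63 without knockdown 3 and 0.77 without control 1. TAP1, a peptide transporter subunit, differed by 0.44 (SE 0.19) and PSMB8, an immunoproteasome subunit, by 0.45 (SE 0.25), the latter by 0.21 without control 1 and 0.29 without knockdown 3. WARS, a tRNA synthetase, was 4.67 ± 0.15 in control and 5.04 ± 0.32 in knockdown tumours (SD, n = 3). Without knockdown 3, TAP1 differed by 0.35 and WARS by 0.25. GBP1, CXCL9, CXCL10 and IDO1 did not pass the filter. The lists were chosen with earlier results of these data known, and the difference between the members and their targets was not tested.

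**Figure D4:**
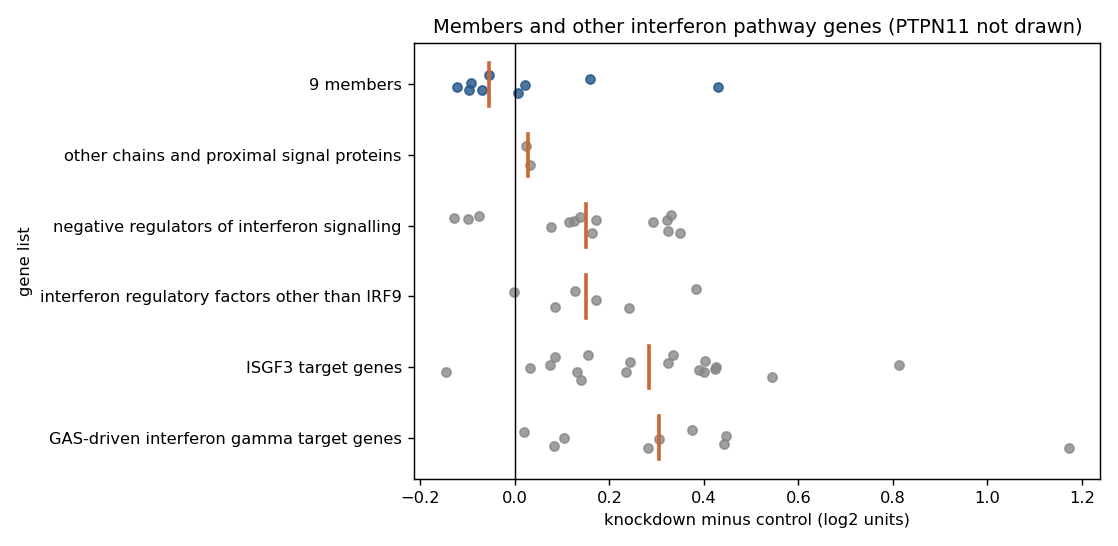
Difference between knockdown and control tumours (horizontal axis, log2 units) of each compared gene of the members (blue) and of 5 other interferon pathway lists (grey), with list medians as orange bars. PTPN11, at -2.05, is not drawn and is left out of the bar of its list; the bar of the members is at -0.06, and those of the ISGF3 and GAS-driven targets are at 0.28 and 0.30.

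By the root mean square difference between values centred on each gene's own mean over the arrays, the 3 genes nearest to IFNAR1 over the 6 arrays were GPD1L, related to glycerol-3-phosphate dehydrogenase (0.01), SLC30A1, a zinc exporter (0.03), and TUBGCP2, a subunit of the gamma-tubulin complex (0.05). They were chosen for that likeness among all genes compared, so their values say nothing further about it.

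Markers of the tumour cells and of other cell types were read beside these results. The host is a mouse, so leukocytes, endothelium and fibroblasts in these tumours would be mouse cells. Their markers are therefore not a measure of the content of such cells here. Of 11 melanoma lineage markers 4 were compared, with S100B at 8.88 ± 0.44 in control and 8.63 ± 0.44 in knockdown tumours (SD, n = 3) and PAX3 at 5.56 ± 0.35 and 5.62 ± 0.31. SOX10 differed by -0.20 (SE 0.44) and S100A1 by -0.47 (SE 0.21), so that 1 difference was positive and 3 were negative, with a median of -0.23, and none passed the test. The markers MITF, PMEL, MLANA, TYR, TYRP1 and DCT did not pass the filter. Of 11 leukocyte and macrophage markers 2 were compared. CD68 was 7.30 ± 0.50 in control and 7.71 ± 0.63 in knockdown tumours, TYROBP differed by -0.22 (SE 0.18), and PTPRC, CD14 and CSF1R did not pass. The summed linear level of that list ran from 184 to 269 in control and from 207 to 420 in knockdown tumours. CD68 made up 57.2 to 78.5% of it, and without CD68 the sums ran from 70.1 to 81.4 in control and from 69.8 to 90.4 in knockdown tumours. Endothelial markers (3 of 9 compared, EGFL7 at 0.04 and CLDN5 at -0.14) gave sums from 111 to 132 in control and from 113 to 127 in knockdown tumours. Fibroblast markers (6 of 9 compared, COL1A1 at -0.04 and PDGFRB at 0.03) gave 420 to 495 and 404 to 524, and 0 of 7 adipocyte and keratinocyte markers were compared. Among 13 heat shock and immediate early genes, 12 were compared, 8 differences were positive, the median was 0.12 and 0 passed the test. This list is not a measure of RNA quality, which was not tested. The heat shock genes HSPH1 and HSPA1B differed by 0.11 and -0.14. The immediate early genes of the list with the lowest p were named after their values were seen. They differed by 0.41 (EGR1, SE 0.18), 0.44 (ZFP36, SE 0.24), 0.31 (JUNB, SE 0.17) and 0.33 (IER2, SE 0.18), close in size to IFNAR1 and to the target medians. The rest of the immediate early genes compared did not share that size: FOSB 0.14, JUN 0.10, FOS -4e-04 and DUSP1 -0.13. The part of immediate early genes in the values of IFNAR1 and the targets was not tested. In bulk tumours, fewer cells of a type and less RNA per cell cannot be told apart. The part of mouse host RNA in the values of the members and of the markers was not tested.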

How the data were processed

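The values are GCRMA values on a log2 scale that the authors deposited, per the submitters' processing notes. The base is read from their range (0.05 to 13.3), since it is not stated, and array design, software version and build were not given in the sources used here. Of 53617 features, 26928 without a symbol and 270 with several were left out. The series value table held the same values (largest difference 0). Each gene was represented by its feature of highest mean, and genes were kept where 3 of 6 arrays exceeded 4. The 2 groups were compared with limma 3.58.1 in R 4.3.3 (lmFit and eBayes, no covariate, two-sided, residual df 4, prior df 5.83), with Benjamini-Hochberg adjustment and a threshold of 0.05. The fit was also run on simulated data with independent noise for each gene and array. That simulation held no shift of a whole array, so it cannot show how such a shift affects the fit. Intervals are 95% intervals. Exact permutation tests ran over 20 assignments. The number of arrays limits the precision. Arrays correlated at 0.960 to 0.983.

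The members and gene lists were chosen with earlier results of these data known, and 1 listed gene is not reported here. All members and PTPN11 are named, from each pathway list any gene that passed, then the lowest p-values, up to 4, and from marker lists the 2 of highest level, with further ones noted in place. Other genes are named as nearest neighbours on the chromosome or for falling below the filter. The genes nearest to IFNAR1 in pattern are the 3 with the smallest root mean square difference. Same-numbered samples were checked as pairs: deviations from the group means correlated at 0.42, -0.03 and 0.17. Samples of unlike number gave -0.43 to 0.33. Same-numbered samples were not treated as paired, though this check cannot show that pairing is absent. Alternatives were other filters, features, normalizations, variance models, a block and left-out arrays.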

Additional observations from a re-analysis of the deposited data

How the results depend on the processing

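No member passed the adjusted threshold under any of the 18 alternatives run, and the lowest adjusted p of a member was 0.63 (IFNAR1 without control 3). IFNAR1 stayed positive (0.19 to 0.60) and STAT2 negative (-0.14 to -0.07) wherever compared. The median member difference lay between -0.11 and 0.09. Signs of the other members turned as follows. With arrays centred on their median IFNAR2 was -0.0245 and IFNGR1 -0.0404, so that 2 members were positive and 7 negative, and after quantile normalization they were -0.0478 and -0.01. With array weights they were -0.0029 and -0.0891. Leaving out 1 array gave ranges of -0.0461 to 0.0800 for IFNAR2, -0.20 to 0.11 for IFNGR1, -0.34 to 0.0545 for IL10RB, -0.19 to 0.0958 for JAK2, -0.15 to 0.0336 for TYK2 and -0.23 to -0.0099 for IRF9. Without both arrays numbered 1, IFNAR2 was -0.0335, IFNGR1 -0.26 and IRF9 0.0847. With the control contrast as a covariate IFNGR1 was -0.16 and IFNGR2 -0.10, and IL10RB, JAK2 and TYK2 moved to -0.39, -0.24 and -0.21 with their sign kept. These last alternatives and the filter at the negative control percentile were chosen after the data were seen. The cause of the turns was not tested.

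PTPN11 stayed between -2.30 and -1.86. Its adjusted p missed the threshold with no filter (0.079, difference -2.05), with centred arrays (0.084, -2.10), after quantile normalization (0.091, -2.11), in the ordinary test without moderation (1.00, -2.05) and with the covariate (0.074, -2.16). With 1 array left out the difference ran from -2.19 to -1.86. The count of genes past the threshold, 1 as reported, was 0 with no filter, centring, quantile normalization, the ordinary test and the covariate, 0 to 1 with 1 array left out, and 2 without both arrays numbered 1. With the sample number as a replicate block it was 5, and no member was among them (IFNAR1 adjusted p = 0.76). The filter at a log2 value of 6 kept 4 members and the negative control percentile 6, so the others gave no value there. The series value table held identical values and was not run. Signal over background limits STAT2 and IRF9, which lay above the percentile on 0 arrays.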
